A study of Homo sapiens with 6 samples.

Results

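The genes described here are those of the ADAM and MMP metalloproteinase families, the TIMP inhibitors and genes with related symbols in HK2, an established human cell line of kidney proximal tubule epithelium. They were taken by symbol, under a rule set with earlier results of these data known. The rule took all named genes whose symbols begin like those of collagens, laminins, ADAMs, ADAMTS proteases, MMPs, TIMPs or serpins, without MMP1 and MMP13. This took in 56 of the 14884 genes named on the array: 23 ADAM genes, 18 MMP genes, 4 TIMP genes, 7 genes with ADAMTS symbols and 4 with collagen symbols. The set is less broad than the symbols searched for. The RefSeq gene table holds 215 symbols of this pattern. Only probe sets with a single symbol in the annotation used here count as named. These named 1 of 44 collagen chains (COL26A1), 0 of 12 laminin chains and 0 of 43 serpin symbols. Laminins, serpins and the other collagen chains were therefore not analysed here. Of the 56, 46 are protein coding, 6 are transcribed pseudogenes and 4 are noncoding RNAs antisense to a collagen or an ADAMTS gene. They are called the set below, and not all of them encode a protease.

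ADAMs are membrane proteins with a metalloproteinase domain and a disintegrin domain. Many of them cut growth factors, cytokines and adhesion molecules off the cell surface, a step called shedding. MMPs cut collagens, laminins and other matrix proteins, either after secretion or anchored in the plasma membrane, and TIMPs block MMPs and some ADAMs. In the kidney tubule these enzymes and inhibitors are known for turnover of the basement membrane, for release of epidermal growth factor receptor ligands and for scarring after injury.

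The cells carried a lentiviral pLKO.1 construct with an shRNA against GFP, which human cells lack, as the control, or against PGC-1alpha, a transcriptional coactivator of mitochondrial genes. Puromycin removed cells without a construct, and the RNA dates from day 5 after transduction, 24 hours after the drug was withdrawn. The labels name neither a clone nor the sequence of either hairpin. Each group held 3 arrays, labelled as biological replicates 1 to 3, and each array gave log2 RMA values (a log2 scale of brightness after background correction and quantile normalisation) for 53617 probe sets. Whether the 3 samples of a group came from separate transductions is not given, and PPARGC1A, the gene of PGC-1alpha, was not among the named probe sets, so the knockdown was not checked here.

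Array medians lay between 5.00 and 5.04, and arrays correlated at r = 0.988 to 0.992 within groups and 0.982 to 0.987 between them. On the second principal component (19.6% of the variance) replicate 1 was highest in both groups, at 42.6 in shGFP and 19.9 in shPGC-1alpha. Replicate 2 was at -19.7 and -18.2 in the same order, and replicate 3 at -26.9 and 2.3. Whether the replicate numbers mark batches is not given. Values without shGFP replicate 1, the array farthest out, are given where they change a call. The cell type was checked against marker lists. Of 5 named proximal tubule markers, CUBN and LRP2 were below 4.43. That level, under which 2977 of the named genes lie, is called dim here. MME, the brightest of the 5, fell by 0.61, and ANPEP, at 0.16, and AQP1, at -0.003, did not pass. The list's summed level was 8.34 to 8.47 in shGFP arrays and 8.01 to 8.06 in shPGC-1alpha arrays. Of 5 named markers of simple epithelia 3 fell, KRT19 by 1.42, EPCAM by 0.73 and KRT18 by 0.31, and the list's summed level (on a log2 scale) went from 10.98 to 11.05 in shGFP arrays to 10.29 to 10.35 in shPGC-1alpha arrays. Of 5 named fibroblast and pericyte markers 3 rose, the matrix genes LUM, at 0.76, DCN, at 0.83, and MFAP5, at 0.66. The summed level of that list went from 9.02 to 9.05 in shGFP arrays to 9.58 to 9.70 in shPGC-1alpha arrays. DCN was dim in the shGFP arrays, with a mean of 3.80, and had a mean of 4.63 in the shPGC-1alpha arrays. THY1 and PDPN, of the same list, did not pass, at -0.12 and -0.13. The 4 endothelial markers, summed at 5.92 to 6.14 over the 6 arrays, had differences of -0.12 to 0.18. Of 3 leukocyte markers CD68, already at a mean of 11.15 in the shGFP arrays, rose by 0.34. CD14, at 0.24, did not pass, and LYZ was dim. These markers moved alongside the genes below, and their part in those results was not tested. In bulk RNA, fewer cells of a type and less RNA per cell cannot be told apart.

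Of the 56 genes, 7 rose and 5 fell with the shRNA against PGC-1alpha at an adjusted p under 0.05 in limma, and 44 did not pass. The genes that rose were ADAM12, ADAM17, MMP15, MMP16, MMP19, TIMP2 and ADAMTSL5, and those that fell were ADAM9, MMP24, MMP25, ADAMTS9-AS2 and COL18A1-AS2. Over all 14884 named genes 21.8% passed, with 9.58% of the 14884 higher and 12.2% lower. So 12 of 56 is near that background, and the count says nothing particular about these families. With each array centred on its median, 56.5% of the calls over all genes were higher, against 44.0% in the values as deposited, and the set then had 8 higher and 3 lower. The median log2 difference (shPGC-1alpha minus shGFP) was -0.01 in the set and -0.02 over all genes. A call with a difference of at least 1 log2 unit was made for 1 of the 56, ADAM12, against 1.46% of all genes. MMP1 and MMP13, which the rule left out, also passed, at 0.84 and -1.95, and are not counted among the 56. The 3 arrays of one group lay wholly above or below those of the other for 17 of the 56 (9 higher and 8 lower), against 38.7% of all genes (17.2% higher and 21.5% lower).

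**Figure D1:**
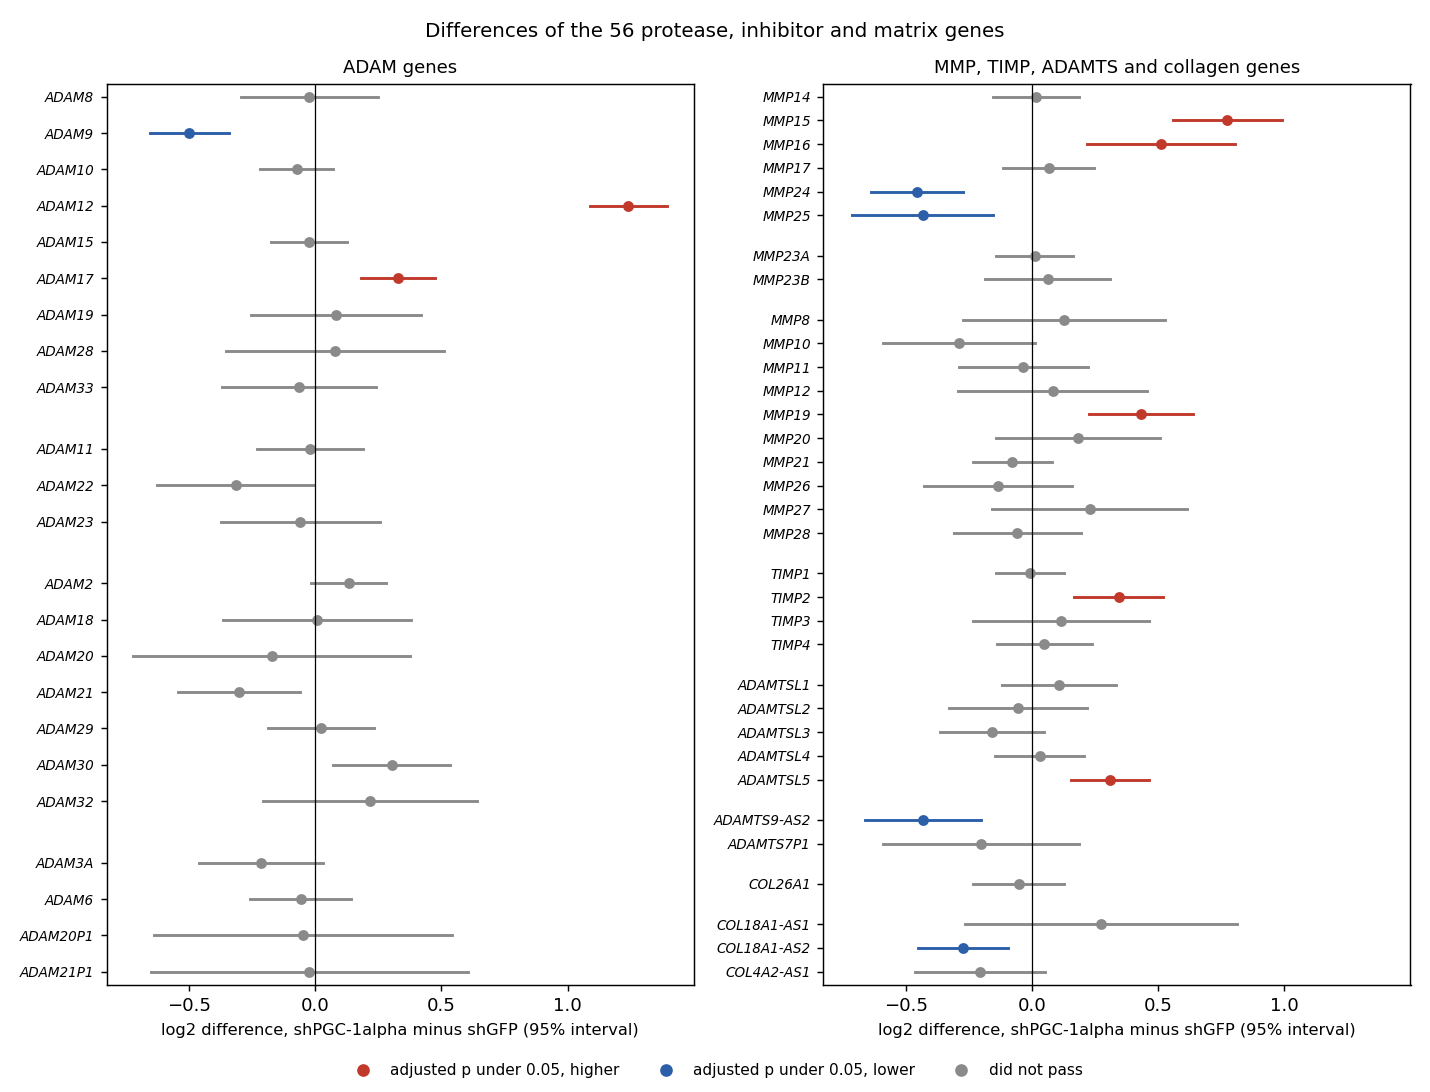
Log2 difference between the shPGC-1alpha and shGFP groups (x axis, limma estimate with its 95% interval) for each of the 56 genes, set in blocks by role. The interval of ADAM12 lies farthest to the right, at 1.09 to 1.39, MMP15 follows, and the intervals of TIMP1, ADAM10 and MMP14 cross 0.

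All calls were of genes at or above the dim level. Of the 56 genes 15 were dim in both groups, and 0 of these 15 passed in limma, with 4.3% called among all dim genes. At an unadjusted p under 0.05 there were 2, ADAM21 and ADAM30. Calls were gained by MMP10 without shGFP replicate 2 (-0.43, adjusted p 0.023), by ADAM3A without shPGC-1alpha replicate 1 (-0.32, adjusted p 0.044) and by ADAM30 with arrays centred on their median (0.36, adjusted p 0.039). The other 41 genes held all 12 calls (29.3%), with 26.2% called among all genes at or above the dim level. The dim genes were ADAM2, ADAM20, ADAM21, ADAM29 and ADAM30, the pseudogenes ADAM3A and ADAM21P1, the antisense RNA COL4A2-AS1 and the secreted MMP8, MMP10, MMP12, MMP20, MMP21, MMP26 and MMP27. RMA gives no detection calls, so a dim value does not show that a transcript was absent.

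**Figure D2:**
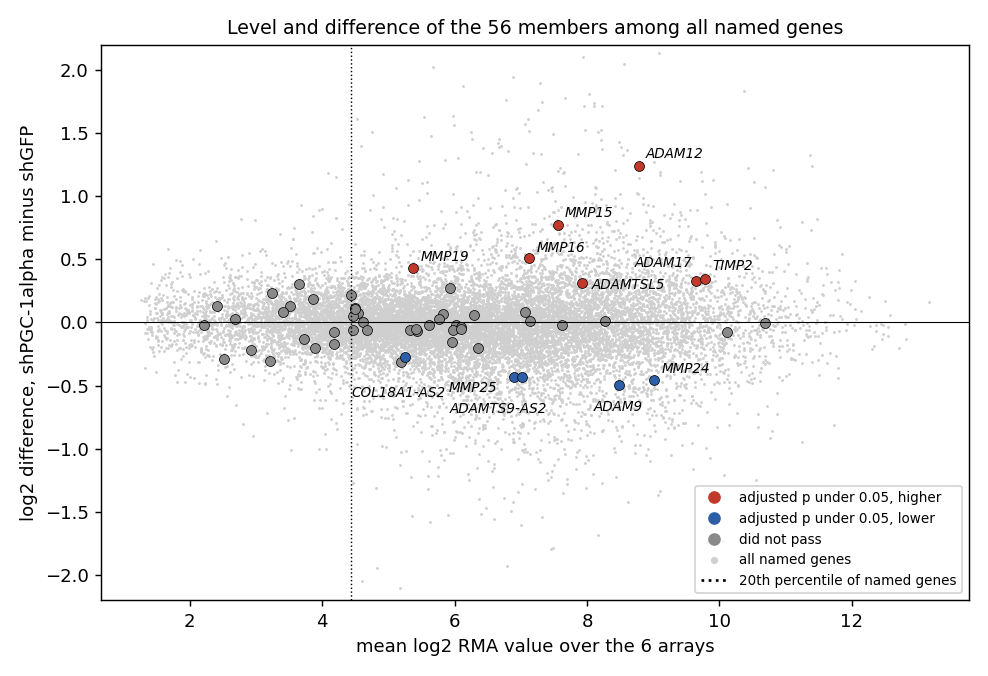
Mean log2 RMA value over the 6 arrays (x axis) against the log2 difference (y axis, which leaves out some of the other named genes beyond its ends) for all named genes in grey and the 56 genes as large points. The 12 coloured genes lie to the right of the dotted line at 4.43, and ADAM12 is the point above 1.

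Among the 9 ADAM genes with a catalytic metalloproteinase domain that are known outside the germ line, 2 rose, 1 fell and 6 did not pass. ADAM12 (meltrin alpha), which sheds ligands of the epidermal growth factor receptor and is known for its rise in fibrotic tissue, had the largest difference of the set. Its log2 values were 8.09, 8.17 and 8.21 in the shGFP arrays and 9.38, 9.38 and 9.44 in the shPGC-1alpha arrays. The groups lay more than 1 log2 unit apart and the arrays of each were close together. The difference was 1.24 (SE 0.07), or 2.36-fold, with a limma adjusted p of 5.9e-05 that was at most 0.0015 over the 14 alternative settings tried. ADAM17, the TNF-alpha converting enzyme, read 9.42, 9.50 and 9.52 against 9.82, 9.82 and 9.79. All 3 shPGC-1alpha arrays were higher than the control arrays, by a smaller step: 0.33 (SE 0.06), or 1.25-fold, adjusted p 0.0097. The call was lost only with adjustment over all probe sets, where the adjusted p was 0.052.

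The 250 bases upstream of the annotated starts of ADAM12 and ADAM17 are shown because these are the ADAM genes that rose. They are RefSeq sequences of GRCh38.p14, written 5′ to 3′ on the gene's strand, at chr10:126388478-126388727 (minus strand) for ADAM12 and chr2:9555831-9556080 (minus strand) for ADAM17. Capitals mark matches on either strand to the AP-1 motif TGANTCA, the GC box GGGCGG, the TATA box TATAAA or the CCAAT box CCAAT, and none of the marked matches overlap in the sequences printed here.
ADAM12: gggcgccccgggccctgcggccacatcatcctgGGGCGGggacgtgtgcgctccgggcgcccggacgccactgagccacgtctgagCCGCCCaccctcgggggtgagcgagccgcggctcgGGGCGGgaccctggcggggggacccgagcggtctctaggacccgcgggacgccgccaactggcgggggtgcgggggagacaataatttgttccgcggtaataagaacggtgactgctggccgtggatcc
ADAM17: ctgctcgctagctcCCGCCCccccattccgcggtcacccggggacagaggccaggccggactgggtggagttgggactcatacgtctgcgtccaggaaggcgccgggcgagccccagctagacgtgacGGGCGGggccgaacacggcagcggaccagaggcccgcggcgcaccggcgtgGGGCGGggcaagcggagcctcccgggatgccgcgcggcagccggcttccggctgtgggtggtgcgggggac
Each window holds 3 GC boxes and no match to the other marked motifs, and G and C make up 73.6% of the ADAM12 window and 75.6% of that of ADAM17.

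ADAM9 (meltrin gamma), a widely expressed sheddase, went the other way. It read 8.79, 8.72 and 8.69 in the control arrays and 8.29, 8.24 and 8.17 in the shPGC-1alpha arrays. The groups did not overlap, and the difference of -0.50 (SE 0.07), a 1.41-fold lower level, had an adjusted p of 0.0021 that stayed under 0.05 in all 14 alternative settings. ADAM10, the main sheddase of Notch and of several cadherins, read 10.13, 10.19 and 10.13 against 10.03, 10.10 and 10.10. These groups did not overlap either, but by a margin too small to pass: the difference was -0.07, with a 95% interval of -0.22 to 0.07 and an adjusted p of 0.475. ADAM15, a disintegrin that binds integrins, was at -0.02 (interval -0.17 to 0.13). ADAM8, ADAM19, ADAM28 and ADAM33 lay between -0.06 and 0.08, and their intervals reached 0.51 at most, so differences of the size of that of ADAM12 lie outside them.

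ADAM11, ADAM22 and ADAM23 lack the zinc-binding protease motif and are known as binding partners at synapses. None of these 3 passed in limma (at an unadjusted p under 0.05, ADAM22 did). ADAM22, at -0.32, had an interval of -0.63 to -0.004 and an adjusted p of 0.145, and its groups overlapped. Of the 7 ADAM genes known from testis and sperm, ADAM2, ADAM18, ADAM20, ADAM21, ADAM29, ADAM30 and ADAM32, 0 passed, and at an unadjusted p under 0.05 there were ADAM21 and ADAM30. ADAM30 lay at 3.36, 3.51 and 3.63 against 3.67, 3.93 and 3.81, and ADAM21 at 3.22, 3.58 and 3.30 against 3.02, 3.15 and 3.03. Their groups did not overlap, at 0.30 and -0.30, but all of these values are dim and the adjusted p were 0.068 and 0.082. The 4 ADAM pseudogenes, ADAM3A, ADAM6, ADAM20P1 and ADAM21P1, lay between -0.22 and -0.02, and their arrays varied widely: ADAM21P1 read 2.90 in shGFP replicate 1 and 1.86 and 1.93 in the other control arrays.

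Membrane-type MMPs, of which 6 were named, sit on the cell surface, by a transmembrane helix in MMP14, MMP15, MMP16 and MMP24 and by a lipid anchor in MMP17 and MMP25. Of the 6, MMP15 and MMP16 rose, MMP24 and MMP25 fell, and MMP14 and MMP17 did not pass. MMP15 (MT2-MMP), an activator of the gelatinase MMP2, read 7.29, 7.10 and 7.11 in the control arrays and 7.93, 7.82 and 8.08 with the shRNA against PGC-1alpha. Every shPGC-1alpha array was above every control array. The difference was 0.77 (SE 0.09), or 1.71-fold, with an adjusted p of 0.0013 that was at most 0.0093 over the alternative settings. MMP16 (MT3-MMP) read 6.99, 6.82 and 6.82 against 7.65, 7.18 and 7.34. The groups did not overlap, but the shPGC-1alpha arrays were spread, with replicate 1 highest. Its difference was 0.51 (SE 0.12), or 1.43-fold, at an adjusted p of 0.025, and the call was lost without shGFP replicate 2, shGFP replicate 3 or shPGC-1alpha replicate 3 (highest adjusted p 0.080) and with adjustment over all probe sets (0.085).

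MMP24 (MT5-MMP) read 9.32, 9.19 and 9.22 in the control arrays and 8.90, 8.70 and 8.76 in the others. The groups were apart, at -0.45 (SE 0.08) or 1.37-fold lower, adjusted p 0.0058. This rests on 1 of its 2 probe sets. The other, with a mean of 7.45, was at -0.08 (95% interval -0.22 to 0.07) and did not pass. MMP24 overlaps MMP24OS on the opposite strand in the RefSeq table, and which transcript each probe set reads was not tested. MMP25 (leukolysin, MT6-MMP), best known from neutrophils, read 7.25, 7.10 and 6.98 against 6.59, 6.54 and 6.91, so shPGC-1alpha replicate 3 came close to the lowest control. Its difference of -0.43 (SE 0.12) had an adjusted p of 0.039. That call was lost without any single array other than shPGC-1alpha replicate 3 (highest adjusted p 0.112) and with arrays centred on their median (0.069), renormalised by quantiles (0.063) or adjustment over all probe sets (0.119). Its other 2 probe sets, at -0.16 and -0.15, did not pass.

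The window upstream of MMP15, the membrane-type MMP with the largest rise, and that of MMP24, the one with the largest fall, are printed to set them side by side, with MMP10 as a dim secreted MMP. They lie at chr16:58025504-58025753 (plus strand), chr20:35226440-35226689 (plus strand) and chr11:102780629-102780878 (minus strand) of GRCh38.p14, with capitals as above.
MMP15: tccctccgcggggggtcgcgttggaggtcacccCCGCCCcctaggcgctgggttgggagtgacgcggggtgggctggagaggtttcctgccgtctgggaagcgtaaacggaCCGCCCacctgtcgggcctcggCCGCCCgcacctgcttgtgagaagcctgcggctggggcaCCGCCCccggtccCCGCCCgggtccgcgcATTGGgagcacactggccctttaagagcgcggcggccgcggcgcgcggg
MMP24: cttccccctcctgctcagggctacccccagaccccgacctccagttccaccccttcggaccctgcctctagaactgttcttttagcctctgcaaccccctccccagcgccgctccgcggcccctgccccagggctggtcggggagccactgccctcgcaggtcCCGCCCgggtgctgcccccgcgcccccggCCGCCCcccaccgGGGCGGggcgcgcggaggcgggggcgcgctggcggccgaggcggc
MMP10: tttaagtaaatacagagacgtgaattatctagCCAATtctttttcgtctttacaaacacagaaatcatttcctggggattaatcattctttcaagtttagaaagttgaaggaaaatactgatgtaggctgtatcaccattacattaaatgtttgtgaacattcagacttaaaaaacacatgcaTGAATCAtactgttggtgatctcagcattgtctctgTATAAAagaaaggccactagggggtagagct
The MMP15 window holds 5 GC boxes and 1 CCAAT box and that of MMP24 holds 3 GC boxes, with 74.8% and 77.6% G and C. The MMP10 window has 34.4% G and C, no GC box, 1 TATA box that ends 25 bases before the start, 1 AP-1 match and 1 CCAAT box.

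MMP14 (MT1-MMP), the cell-surface collagenase that activates MMP2, did not pass. It read 8.35, 8.20 and 8.23 against 8.29, 8.21 and 8.33, and the groups overlapped. The difference was 0.01, with a 95% interval of -0.15 to 0.18, which leaves out a change of the size of that of MMP15. MMP17 was at 0.07 (interval -0.11 to 0.25). MMP23B, a membrane MMP without a hemopexin domain, and its near-identical pseudogene MMP23A were at 0.06 and 0.01, and probes may not tell this pair apart.

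Of the 10 secreted MMPs that were named, 1 rose and 9 did not pass. With MMP1 and MMP13 left aside, 17 of 23 protein-coding MMP genes were named. MMP2, MMP3, MMP7 and MMP9 were not among them, so they were not analysed here. MMP19, which cuts basement membrane proteins, read 4.98, 5.24 and 5.25 in the control arrays and 5.58, 5.60 and 5.58 in the shPGC-1alpha arrays. The treated arrays agreed closely, and shGFP replicate 1 was the lowest of the controls. The difference was 0.43 (SE 0.09), or 1.35-fold, at an adjusted p of 0.012, which stayed under 0.05 with any single array left out and was 0.053 with adjustment over all probe sets. MMP11 (stromelysin-3) and MMP28 (epilysin), which furin activates inside the cell, were at -0.03 and -0.06. The 7 dim members ran from -0.29 for MMP10 (stromelysin-2) to 0.23 for MMP27. MMP20, MMP27, MMP8 and MMP10 follow each other in the RefSeq table with no other protein-coding gene between neighbours, and all 4 were dim. MMP1 and MMP13, which the choice of genes left out, both passed in the same fit. They were at 0.84 (limma adjusted p 0.00086) and -1.95 (limma adjusted p 4.0e-05).

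**Figure D3:**
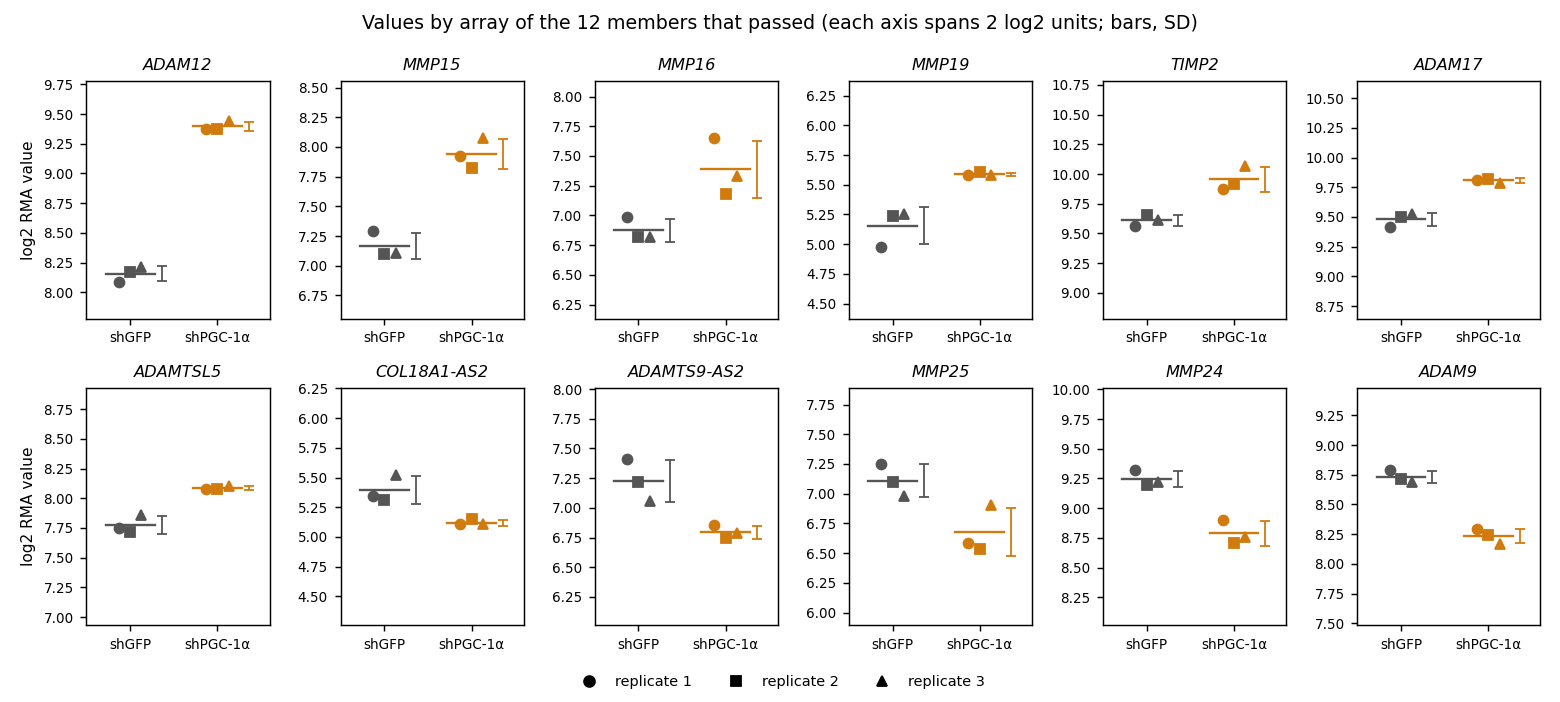
Log2 RMA values of the 12 genes that passed, in order of their difference, in the 3 shGFP arrays (grey) and the 3 shPGC-1alpha arrays (orange), with each symbol a replicate number, horizontal lines for group means and bars for the SD. In MMP16 and MMP25 the shPGC-1alpha arrays are the most spread, with SDs of 0.24 and 0.20, and in ADAM12 the groups are farthest apart.

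All 4 TIMPs were named, and 1 of them rose. TIMP2, which blocks MMPs and also takes part in the activation of MMP2 by MMP14, read 9.56, 9.65 and 9.62 against 9.88, 9.92 and 10.07. The groups were apart, with the shPGC-1alpha arrays more spread than the controls. The difference was 0.34 (SE 0.07), or 1.27-fold, at an adjusted p of 0.016. The call was lost without shGFP replicate 1 or 3 (highest adjusted p 0.052) and with adjustment over all probe sets (0.070). TIMP1, the TIMP known for its rise in injured kidney, read 10.69, 10.72 and 10.68 against 10.69, 10.70 and 10.67, and the groups overlapped. Its difference was -0.01, with a 95% interval of -0.14 to 0.13. TIMP3, which binds to matrix and blocks ADAM17, and TIMP4 had means just above the dim level and were at 0.12 (interval -0.23 to 0.46) and 0.05 (interval -0.14 to 0.24). The second probe set of TIMP3 was at 0.18 and did not pass either.

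Of 24 protein-coding genes with ADAMTS symbols 5 were named, all of them ADAMTS-like genes, so the ADAMTS proteases were not analysed here. ADAMTS-like proteins resemble the ancillary domains of ADAMTS proteases, lack the protease domain and bind to fibrillin microfibrils. ADAMTSL5 rose, from 7.75, 7.72 and 7.86 to 8.08, 8.08 and 8.11. The shPGC-1alpha arrays were nearly equal, and the difference was 0.31 (SE 0.07), or 1.24-fold, at an adjusted p of 0.014. It no longer passed when shGFP replicate 2 was left out (adjusted p 0.059) and with adjustment over all probe sets (0.069). ADAMTSL1, ADAMTSL2, ADAMTSL3 and ADAMTSL4 lay between -0.16 and 0.11 and did not pass. ADAMTS9-AS2, an RNA antisense to the protease gene ADAMTS9, read 7.41, 7.22 and 7.06 against 6.85, 6.75 and 6.78. It fell by 0.43 (SE 0.10), adjusted p 0.019, and the control arrays were the more spread. The call was lost without shGFP replicate 2, shPGC-1alpha replicate 2 or shPGC-1alpha replicate 3 (highest adjusted p 0.061) and with adjustment over all probe sets (0.072). The 2 probe sets of the pseudogene ADAMTS7P1 were at -0.20 and 0.17, on opposite sides of 0, and neither passed.

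Collagen symbols were nearly all those of antisense RNAs. COL26A1, the single collagen chain named, read 6.13, 6.01 and 6.21 against 5.99, 6.09 and 6.12 and was at -0.05 (95% interval -0.23 to 0.13). Both antisense RNAs inside COL18A1, the gene of the basement membrane collagen whose fragment is endostatin, were measured. COL18A1-AS2 fell by 0.27 (SE 0.08) at an adjusted p of 0.041, from 5.35, 5.31 and 5.52 to values between 5.10 and 5.15. That call was lost with any 1 of the 6 arrays left out (adjusted p 0.056 to 0.115), with median centring (0.076), with a trended and robust variance (0.080) and with adjustment over all probe sets (0.140). COL18A1-AS1 was at 0.27 with an interval of -0.26 to 0.81, and shGFP replicate 1, at 5.23, was far below the other controls, at 6.02 and 6.12. COL4A2-AS1 was dim, at -0.21.

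With adjustment over all 53617 probe sets, 4 of the 12 genes still passed: ADAM12, MMP15, ADAM9 and MMP24. With any single array left out, 6 passed each time: ADAM12, ADAM17, ADAM9, MMP15, MMP19 and MMP24. ADAM12, MMP15 and ADAM9 passed in all 14 alternative settings. Of the 44 genes that did not pass, 30 had a 95% interval within 0.5 log2 units of 0, so larger differences lie outside the interval for these and not for the other 14.

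Upstream sequences were found for 36 of the 56 genes, 7 of them among the 12 that passed. The share of G and C in the 250 bases had a median of 73.6% (48.8% to 83.6%) in the 25 genes at or above the dim level and of 39.6% (32.8% to 60.0%) in the 11 dim genes, against 58.0% over 27305 RefSeq windows of this length. Brightness on an array also depends on the probes, so this split by level was not tested. As a description of these windows, GC boxes were in 20 of the 36 (55.6%), against 42.3% of all windows. All 20 were upstream of genes among the 25 at or above the dim level, which include the 7 that passed. Of those 7, 5 had a GC box: ADAM12, ADAM17, ADAMTSL5, MMP15 and MMP24. These 5 hold both genes that rose and a gene that fell. Whether GC boxes go with passing, apart from level, was not tested. A TATA box was in 7 of the 36 (19.4%), against 11.1%, and 5 of these 7 were upstream of MMP genes that were dim: MMP8, MMP10, MMP20, MMP21 and MMP26. AP-1 matches were in 2, MMP10 and MMP20 (5.56%), against 6.60% of all windows, CCAAT boxes in 14 (38.9%) against 33.0%, and matches to the NF-kB consensus in 3, ADAM10, ADAM17 and ADAM19 (8.33%), against 9.57%.

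**Figure D4:**
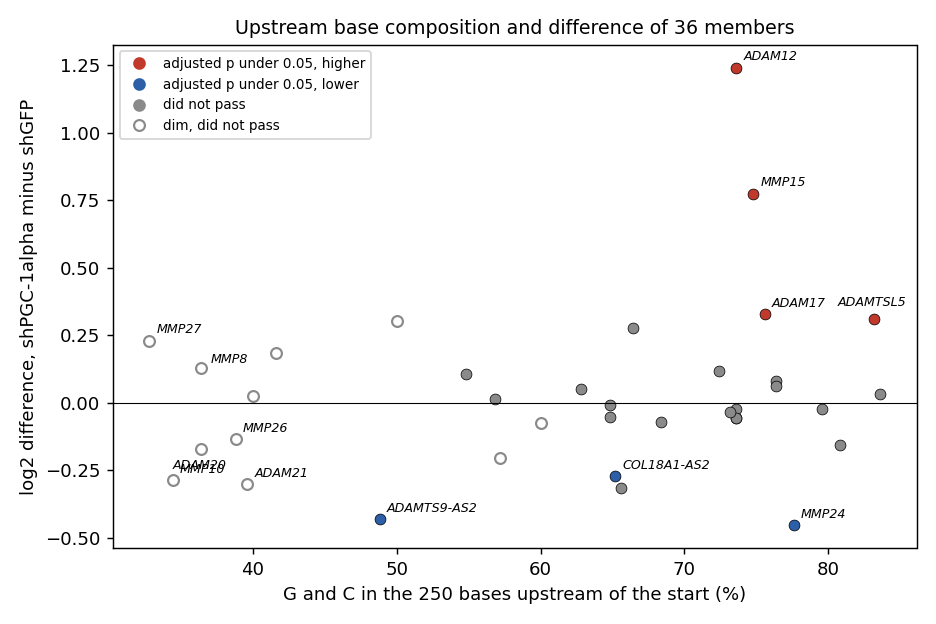
Share of G and C in the 250 bases upstream of the start (x axis) against the log2 difference (y axis) for the 36 genes with a sequence, with open points for the 11 dim genes. The genes under 45% G and C are all open points, and the coloured genes, which passed, lie at 48.8% to 83.2%.

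Genes that act on these proteins were read from lists of non-members. Among 18 named regulators of metalloproteinases 4 rose and 2 fell (33.3% called, against 21.8% of all genes), with a median of 0.00. RECK, a membrane-anchored inhibitor of MMPs and ADAM10, rose by 1.22 (SE 0.07), CD44, which docks MMPs at the surface, by 1.33 (SE 0.07), and FURIN, the protease that removes the propeptide of ADAMs and membrane-type MMPs, by 0.93 (SE 0.07), each with an adjusted p of 0.00023 or less in limma. Of the 6 TSPAN genes of this list, some of which escort ADAM10, TSPAN14 rose by 0.50 and TSPAN5 fell by 0.40, and TSPAN10, TSPAN15, TSPAN17 and TSPAN33, between -0.16 and 0.12, did not pass. TSPAN5 was called in 2 of the 6 fits with 1 array left out. RHBDF2 (iRhom2), which carries ADAM17 to the surface, fell by 0.27 while ADAM17 rose, though it was called in 1 of those 6 fits, and RHBDF1 was at 0.21 and did not pass.

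Over all named genes 21.8% were called, and 26.2% of those at or above the dim level. Among 17 named of 26 listed genes of collagen maturation 4 rose (23.5% called, near those shares, with a median of 0.02). The lowest difference was -0.22. LOX, which crosslinks collagen and elastin, rose by 1.02 (SE 0.06), the collagen prolyl 3-hydroxylase P3H1 by 0.36 and its relative P3H4 by 0.32, and LOXL2 was at 0.06. With 1 array left out, P3H4 was called in 1 of 6 fits and TMEM38B, at 0.24, in 0. Among 13 named of 23 listed partners of the basement membrane and receptors of laminin or collagen, 2 rose and 7 fell (69.2% called, median -0.31). The integrins of that list and DAG1 were not named, so these receptors were not analysed here. FRAS1, which anchors epithelium to the basement membrane, fell by 1.51 (SE 0.11), the laminin-binding NTN4 by 0.80 and the laminin receptor BCAM by 0.69. The collagen receptors DDR1 and DDR2 rose by 0.59 and 0.35, and DDR2, FREM1 and FREM2 lost their calls in at least 4 of the 6 fits with 1 array left out. FREM1 was dim in both groups, with means of 4.07 in shGFP and 3.76 in shPGC-1alpha. DDR2 was dim in shGFP only, at 4.36 against 4.72. Among 19 named of 32 genes on the plasminogen and serpin-target list, 3 rose and 1 fell (21.1% called, median 0.04). PLAU, PLAT and PLAUR of that list were not named. Those that rose were the cysteine protease CTSS, by 1.72 (SE 0.08), CTSB, by 0.59, and thrombomodulin THBD, by 0.43. CTSG, a neutrophil protease, fell by 0.26. THBD and CTSG were each called in 1 of the 6 fits with 1 array left out. Among 17 named of 26 listed genes of the TGF-beta pathway 6 rose and 3 fell (52.9% called, median 0.16). The TGF-beta ligands and receptors of that list were not named. The inhibitory SMAD7 and its partner SMURF2 rose by 0.45 and 0.51 and the repressor SKI by 0.36, and LTBP3, SMAD4 and SMAD2 fell by 0.87, 0.52 and 0.32. SMAD6, at 0.34, was called in 1 of the 6 fits with 1 array left out. LTBP2, at 0.37, was called in 5 of those 6 and in 10 of all 14 alternative settings, where its limma adjusted p reached 0.93.

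**Figure D5:**
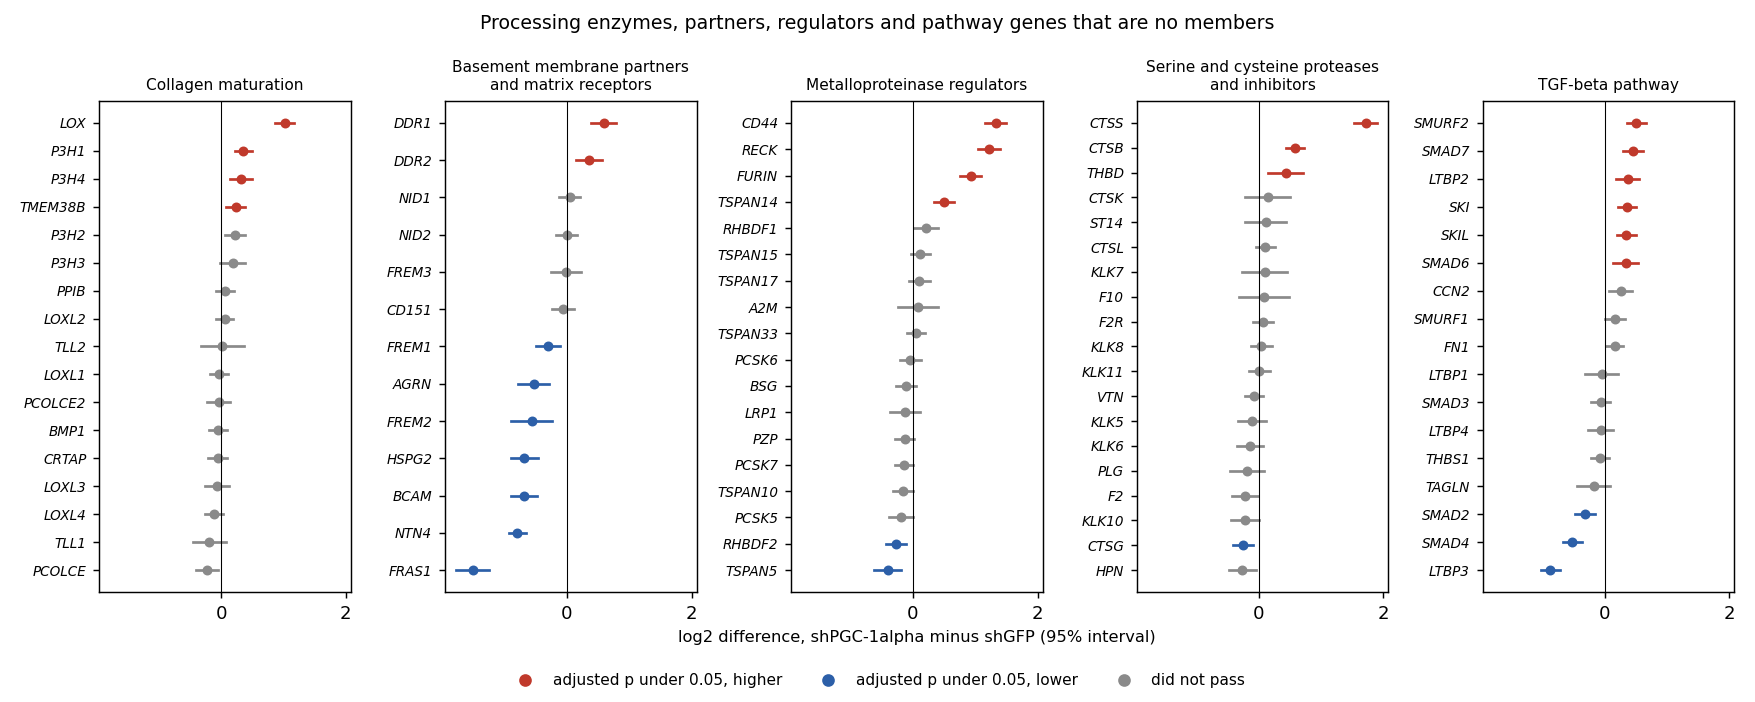
Log2 differences (x axis, limma estimate with its 95% interval) of the named genes of 5 lists that are not in the set, ordered within each list by their difference. RECK, CD44 and FURIN stand apart at the top of the regulator list, and FRAS1 lies lowest in the basement membrane list.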

How the data were processed

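Total RNA from 6 HK2 cultures (3 with shGFP, 3 with shPGC-1alpha) was measured on Affymetrix arrays, 1 a culture, with biotin as the label. The authors deposited log2 values made with RMA in Affymetrix Expression Console, per the submitters' processing notes, with versions and genome build not given in the sources used here. RMA equalises the arrays' distributions, which would reduce a change common to most transcripts. Precision is limited by there being 3 arrays in a group.

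Of 53617 probe sets, 16098 had 1 gene symbol, which gave 14884 genes. The other 37519 had no symbol or more than 1, and are not counted as named. For 779 genes with several, the probe set with the highest mean stood for the gene. The comparison used limma (3.58.1, under R 4.3.3; lmFit, then eBayes at its defaults; two-sided, no filter, no block), adjusted by Benjamini-Hochberg over all 14884 genes, with a threshold of 0.05. SDs are over n = 3 arrays. With 3 arrays against 3 a p-value here reflects only how far these samples scatter, which may be technical. The procedure was tested on simulated data. Alternatives left out 1 array at a time, blocked on the replicate number, or used other filters, probe set choices, scalings, variance models and adjustment.

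The members and lists were chosen with earlier results of these data known. In each family every gene past the threshold was named, with values by array for those with the smallest p, then the 2 brightest that did not pass and every TIMP. In each list the 3 genes with the smallest p in each direction were named. The other members and list genes, the roles and the upstream motifs were added after values were seen. Protein motifs were not analysed here.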

Additional observations from a re-analysis of the deposited data

How the results depend on the processing

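The 12 calls were recomputed under 14 alternatives, which gave 168 values: 0 changed sign, 132 stayed past the threshold and 36 did not. The count over all genes was 3243 and ran from 2328 to 2578 with 1 array left out, with which 5 to 7 of the 56 genes rose and 2 to 4 fell. Adjustment over all probe sets, with the variance also fitted on them, left 1737 genes called, 2 of the 56 higher and 2 lower. The genes that fell numbered 3 with the replicate number as a block, 3 with the probe set of lowest mean and 3 with arrays centred on their median. The block gave 2773 calls over all genes and 7 of the 56 higher. Deviations of same-numbered arrays correlated at 0.12, 0.087 and 0.023, so the numbers were not taken to pair the samples. Replicate 1 was nonetheless the highest array of both groups on the second principal component, and a batch by replicate number was not tested beyond the block. Under the block MMP25 (adjusted p 0.080) and COL18A1-AS2 (0.074) did not pass. Calls gained were 3: MMP10, ADAM3A and ADAM30, each in 1 setting.

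Among genes that did not pass, 24 changed sign somewhere, with 0 of these values past the threshold in limma and none larger than 0.31. With 1 array left out their log2 differences ran from -0.10 to 0.030 for ADAM11, -0.043 to 0.0086 for ADAM15, -0.14 to 0.14 for ADAM18, -0.037 to 0.24 for ADAM19, -0.38 to 0.027 for ADAM20, -0.25 to 0.22 for ADAM20P1, -0.21 to 0.31 for ADAM21P1, -0.19 to 0.022 for ADAM23. The range was -0.10 to 0.21 for ADAM28, -0.057 to 0.086 for ADAM29, -0.16 to 0.088 for ADAM33, -0.10 to 0.069 for ADAM8, -0.18 to 0.050 for ADAMTSL2, -0.017 to 0.074 for ADAMTSL4, -0.0055 to 0.44 for COL18A1-AS1, -0.10 to 0.077 for MMP11. The last were -0.050 to 0.26 for MMP12, -0.016 to 0.062 for MMP14, -0.015 to 0.040 for MMP23A, -0.020 to 0.14 for MMP23B, -0.17 to 0.012 for MMP28, -0.015 to 0.0022 for TIMP1, -0.012 to 0.087 for TIMP4. Centring gave 0.032 for ADAM11, 0.029 for ADAM15, 0.0038 for ADAM20P1, 0.030 for ADAM21P1, 0.029 for ADAM8, 0.018 for MMP11, 0.045 for TIMP1. Quantile normalisation of the named probe sets gave 0.025 for ADAM11, -0.0066 for ADAM29, 0.027 for ADAM8, 0.018 for MMP11. The probe set with the lowest mean gave 0.17 for ADAMTS7P1. With 3 arrays a group, small differences were not detectable, and signal over background was not given.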

Other observations

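Several of the 56 genes share their locus with another named gene in the RefSeq table. ADAM9 overlaps TM2D2, which also fell, by 0.35 (SE 0.06, limma adjusted p 0.0072). ADAM17 overlaps IAH1 on the opposite strand, and IAH1 fell by 0.33 (SE 0.07, adjusted p 0.015) while ADAM17 rose by 0.33. Of the 3 TIMP genes that lie inside a synapsin gene, TIMP1 was at -0.01 inside SYN1, which rose by 0.45 (SE 0.08, adjusted p 0.0069), TIMP4 was at 0.05 inside SYN2, at -0.26 (adjusted p 0.095), and TIMP3 was at 0.12 inside SYN3, at 0.01. Whether probes of one gene read the other was not tested.

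ADAM9 is followed in the RefSeq table by ADAM32, ADAM3A, ADAM18 and ADAM2 with no other protein-coding gene between neighbours. ADAM9 fell by 0.50, and the other 4 did not pass, at 0.22, -0.22, 0.01 and 0.13.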
